A study of Mus musculus with 4 samples.

Results

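The proteins of the large (60S) subunit of the cytosolic ribosome are encoded by the Rpl and Rplp genes. Genes were taken by name from the count table, leaving out names that mark pseudogenes, which gave 51 large-subunit genes of 12486 genes in all. They comprise 46 genes for the standard proteins of the subunit and 5 paralogous copies, Rpl7l1, Rpl10l, Rpl22l1, Rpl36al and Rpl39l. Transcription was measured by PRO-seq, in which RNA polymerase extends nascent RNA in isolated nuclei, so that a count reflects engaged polymerase and not the amount of mature transcript. All 4 libraries came from feeder-free diploid mouse embryonic stem cells in which the zinc-finger protein Zfp574 carries an N-terminal auxin-inducible degron (AID). These cells also express the plant ubiquitin ligase component OsTir1 from an EF1a promoter, inserted in a clonal parental line. The control group was untreated (0 h, 2 libraries), and the depletion group had received 500 µM of the auxin indole-3-acetic acid (IAA) for 6 h (2 libraries). No auxin-treated cells without the degron were analysed here, so that auxin itself and loss of Zfp574 cannot be told apart.

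The large subunit holds the peptidyl transferase centre, where peptide bonds form, the tunnel through which the nascent chain leaves, and a stalk that recruits translation factors. Most of its proteins are needed in equal numbers, their genes are among the most transcribed in growing cells, and their transcripts usually begin with a run of pyrimidines. Rpl10 (uL16) is one of the last proteins to join the subunit, in the cytoplasm, and the subunit cannot take part in translation without it. Rpl10l is an intronless autosomal copy of the X-linked Rpl10, known for its role in male germ cells.

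The control libraries held 3298864 and 3616429 counts in total, and the depletion libraries 6045216 and 5670904. Levels are given as CPM (counts for each library, scaled by its size after TMM adjustment, which takes most genes as unchanged), with mean ± SD over n = 2 libraries. For the cell type markers, CPM was scaled by library totals alone, without the TMM adjustment. The 7 markers of embryonic stem cells, among them Pou5f1, Nanog and Sox2, summed to between 4125 and 4194 CPM in the 4 libraries. Of these markers, 0 of 7 passed the test. Of 4 fibroblast markers only Thy1 was in the table, at no more than 2.21 CPM. Of 3 primitive endoderm markers only Sox17 was, at no more than 1.41 CPM, and neither of the mesoderm markers T and Mixl1 was in the table. The Zfp574 gene itself, whose protein and not its transcript is the target of the degron, was at 24.0 and 35.5 CPM in control and at 32.8 and 39.0 CPM after depletion (log2 fold change 0.25, SE 0.14, adjusted p = 0.406 by edgeR's quasi-likelihood test, Benjamini-Hochberg adjusted).

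To ask how transcription of the large-subunit genes changed after depletion, each was tested within a fit over 11853 genes. All 51 passed the filter on low counts. Rpl10 and its copy Rpl10l fell by more than 2-fold, and 7 more genes fell by less: Rpl36a, Rpl7l1, Rplp1, Rpl18, Rpl11, Rpl8 and Rpl3. Thus 9 of 51 large-subunit genes (17.6%) were lower at an adjusted p under 0.05 (named called from here on), against 1.4% of all genes tested, and 2 of 51 (3.92%) were lower by at least 2-fold, against 0.321% of all genes. None of the 51 was higher, against 1.11% of all genes. At an unadjusted p under 0.05, 29 large-subunit genes were lower and 0 were higher under edgeR, against 7.66% and 8.53% of all genes. DESeq2 also called 0 higher. The 9 calls became 5 with DESeq2 (0.481% of all genes), 16 with a replicate block (2.53%) and 30 with the size factors recovered from the deposited table (5.89%), which moved the median of all genes to -0.11. With 1 library left out at a time, the median log2 fold change of the large-subunit genes ran from -0.18 to -0.11. Over every alternative that tested them, the log2 fold change ran from -1.41 to -1.25 in Rpl10 and from -1.71 to -1.48 in Rpl10l. When a library is left out, the lone library of its group is assumed to vary like the pair of the other group. In bulk nuclei, fewer transcribing cells and less transcription per cell cannot be told apart.

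Rpl10 (ENSMUSG00000008682; chromosome X, 74270812 to 74273135, plus strand, mm10) had 783 and 930 counts before auxin and 610 and 537 after it, although the depletion libraries were the deeper ones. Its level was 235 and 254 CPM in control and 102 and 95.6 CPM after depletion, so that the depletion libraries lay far below those of the control. Transcription of Rpl10 thereby fell by 59.5%, a log2 fold change of -1.30 (SE 0.07, 95% interval -1.44 to -1.17, adjusted p = 1.19e-13 by edgeR's quasi-likelihood test, Benjamini-Hochberg adjusted).

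Rpl10l (ENSMUSG00000060499; chromosome 12, 66283379 to 66284401, minus strand, mm10) had far fewer counts, 67 and 63 in control and 36 and 35 after depletion. Its level was 20.1 and 17.2 CPM in control and 6.05 and 6.23 CPM after depletion, again with no overlap between the groups. Rpl10l fell by 66.9% (log2 fold change -1.60, SE 0.20, 95% interval -2.01 to -1.18, adjusted p = 7.41e-06 by edgeR's quasi-likelihood test, Benjamini-Hochberg adjusted). Whether some of these counts were Rpl10 reads placed on Rpl10l was not tested. The interval of Rpl10l, which is wider at this depth, overlapped that of Rpl10. The ratio of Rpl10 to Rpl10l counts was 11.7 and 14.8 in control and 16.9 and 15.3 after depletion (exact two-sided permutation test p = 0.333, the smallest that 2 against 2 libraries allow). Each depletion ratio lay above each control ratio, and this test cannot pass a threshold of 0.05 at any depth.

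Rpl36a, which encodes a protein of the ribosomal E site, was at 142 and 138 CPM in control and at 90.9 and 99.0 CPM after depletion (log2 fold change -0.56, SE 0.07, adjusted p = 1.24e-05 by edgeR's quasi-likelihood test, Benjamini-Hochberg adjusted). Rpl7l1 encodes a relative of Rpl7 found with ribosome precursors. It was at 123 and 136 CPM in control and at 91.6 and 91.1 CPM after depletion (log2 fold change -0.50, SE 0.08, adjusted p = 9.56e-05 by the same test). Rplp1, an acidic protein of the stalk, was at 99.8 and 85.4 CPM in control and at 69.4 and 61.6 CPM after depletion (log2 fold change -0.49, SE 0.09, adjusted p = 0.00144 by edgeR). Rpl18, a gene mutated in rare cases of Diamond-Blackfan anaemia, was at 191 and 195 CPM in control and at 146 and 141 CPM after depletion (log2 fold change -0.43, SE 0.06, adjusted p = 8.46e-05 by edgeR). In each of these 4 genes the libraries of the 2 groups did not overlap. Without depletion replicate 2, Rplp1 was at -0.41 and no longer past the threshold (adjusted p = 0.0876 by edgeR). DESeq2 with all libraries gave -0.50 and an adjusted p of 0.103.

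Rpl11, Rpl8 and Rpl3 changed by less. Rpl11, which binds 5S ribosomal RNA, was at 159 and 139 CPM in control and at 123 and 120 CPM after depletion (log2 fold change -0.29, adjusted p = 0.0261 by edgeR's quasi-likelihood test, Benjamini-Hochberg adjusted). Rpl8 was at 167 and 172 CPM in control and 148 and 135 CPM after depletion (log2 fold change -0.26, adjusted p = 0.0316 by edgeR). Rpl3, like Rpl8 a protein that reaches toward the peptidyl transferase centre, was at 424 and 417 CPM in control and 364 and 362 CPM after depletion (log2 fold change -0.21, adjusted p = 0.0201 by edgeR). Each of these 3 calls was lost without depletion replicate 1 (adjusted p = 0.178, 0.0911 and 0.244 by edgeR) and without depletion replicate 2 (0.276, 0.402 and 0.299). That of Rpl11 was also lost without control replicate 1 (0.313) and that of Rpl8 without control replicate 2 (0.0870). DESeq2 made none of the 3 calls (adjusted p = 0.759, 0.873 and 0.512). Over the 13 other fits the log2 fold changes stayed below 0, from -0.39 to -0.19 in Rpl11, -0.36 to -0.19 in Rpl8 and -0.32 to -0.19 in Rpl3. Rpl10, Rpl36a, Rpl7l1 and Rpl18 were past the adjusted p of 0.05 in 13 of 13 other fits and Rpl10l in each of the 12 that tested it. With a fold threshold of 1.5 in place of 2, Rpl10 and Rpl10l were still the only 2 large-subunit genes called.

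**Figure D1:**
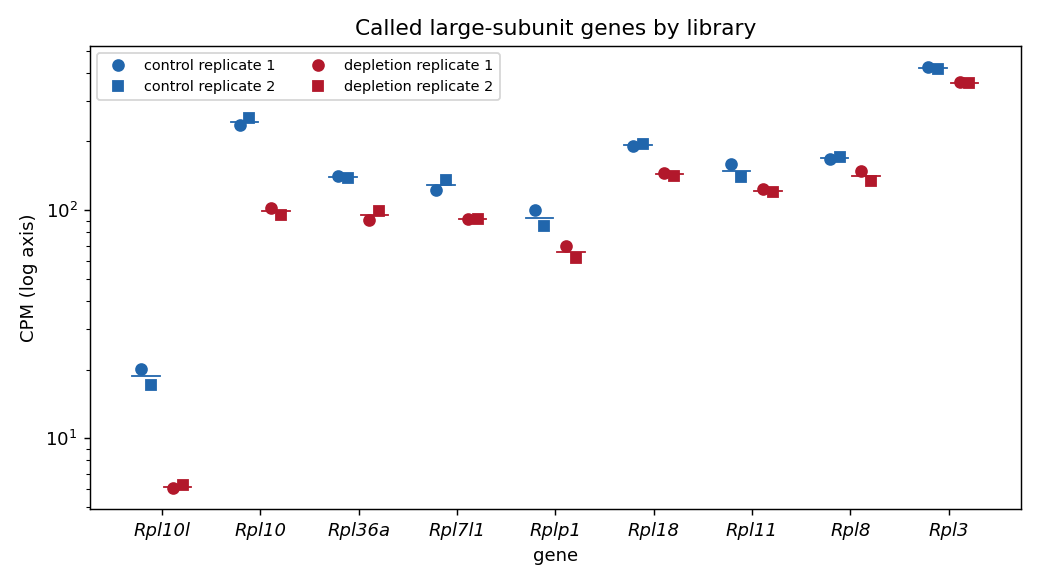
Level in CPM (log axis) of the 9 large-subunit genes lower at an adjusted p under 0.05, in each of 2 control (blue) and 2 depletion (red) libraries, with horizontal lines at group means. In all 9 genes each depletion library sits below each control library, as in 22.9% of all genes tested. The widest gaps are those of Rpl10l and Rpl10. The 9 genes were called lower from these same libraries, so the separation is a description.

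The 300-base promoter windows of the 4 genes that fell most are shown here with that of Rpl14, since all 5 hold the 7 bases CTCTATG, printed in capitals (CATAGAG where the match is on the opposite strand). Each window is given 5′ to 3′ on the strand of the gene and runs from 250 bases before to 50 after the RefSeq start (GRCm38.p6). The windows are chr12:66284352-66284651 (minus strand) for Rpl10l, chrX:74270566-74270865 (plus) for Rpl10, chrX:134585404-134585703 (plus) for Rpl36a, chr17:46782607-46782906 (minus) for Rpl7l1 and chr9:120571267-120571566 (plus) for Rpl14.
Rpl10l: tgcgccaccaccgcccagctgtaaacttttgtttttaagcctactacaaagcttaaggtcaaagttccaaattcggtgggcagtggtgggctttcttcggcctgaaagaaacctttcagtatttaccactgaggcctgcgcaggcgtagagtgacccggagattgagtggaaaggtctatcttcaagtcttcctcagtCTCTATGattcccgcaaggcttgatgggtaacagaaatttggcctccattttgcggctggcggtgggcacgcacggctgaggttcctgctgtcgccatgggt
Rpl10: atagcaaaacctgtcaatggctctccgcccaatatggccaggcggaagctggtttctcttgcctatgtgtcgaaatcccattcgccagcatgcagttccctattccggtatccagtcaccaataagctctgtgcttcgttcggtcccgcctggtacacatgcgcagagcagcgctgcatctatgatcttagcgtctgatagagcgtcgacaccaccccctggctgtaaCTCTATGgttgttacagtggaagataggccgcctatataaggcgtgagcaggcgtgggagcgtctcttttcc
Rpl36a: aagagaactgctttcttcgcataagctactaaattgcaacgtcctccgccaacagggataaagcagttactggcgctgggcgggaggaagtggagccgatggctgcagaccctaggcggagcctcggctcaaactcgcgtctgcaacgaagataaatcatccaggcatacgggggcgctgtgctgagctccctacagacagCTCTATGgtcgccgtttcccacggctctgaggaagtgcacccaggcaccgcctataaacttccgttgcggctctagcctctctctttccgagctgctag
Rpl7l1: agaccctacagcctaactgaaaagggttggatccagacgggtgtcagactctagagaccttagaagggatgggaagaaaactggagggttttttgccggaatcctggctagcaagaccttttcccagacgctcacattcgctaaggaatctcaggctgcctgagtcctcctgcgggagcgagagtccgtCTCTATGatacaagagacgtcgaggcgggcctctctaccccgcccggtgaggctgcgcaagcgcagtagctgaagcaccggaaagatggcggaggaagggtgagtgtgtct
Rpl14: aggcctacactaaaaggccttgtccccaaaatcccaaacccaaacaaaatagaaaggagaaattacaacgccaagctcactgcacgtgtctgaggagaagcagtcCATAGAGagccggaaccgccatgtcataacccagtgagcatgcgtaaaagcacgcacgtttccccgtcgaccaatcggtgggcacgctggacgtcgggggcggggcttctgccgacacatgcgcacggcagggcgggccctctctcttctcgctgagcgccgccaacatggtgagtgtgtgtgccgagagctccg

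Counted from the RefSeq start, the heptamer began at -52 in Rpl10l, -22 in Rpl10, -49 in Rpl36a and -61 in Rpl7l1, on the strand of the gene in all 4. In Rpl14 it lay at -145 on the opposite strand. Rpl14 was at 103 and 89.5 CPM in control and at 72.2 and 84.7 CPM after depletion, and did not pass the test (log2 fold change -0.29, adjusted p = 0.0829 by edgeR's quasi-likelihood test, Benjamini-Hochberg adjusted). The promoter table held 39 of the 51 large-subunit genes. Searched on both strands, the heptamer was in 5 of these 39 (12.8%), in 2.82% of the promoters of all genes tested that were matched and in 3.47% of all RefSeq promoters in the table. The median log2 fold change was -0.56 for the 5 large-subunit genes with the heptamer and -0.13 for the 34 without. Over all genes tested it was -0.04 with and -0.003 without. The heptamer was in 12 of the 34 matched genes lower by at least 2-fold (35.3%) and in 29 of the 138 matched genes lower at an adjusted p under 0.05, the large-subunit genes among them included. Of the 6 called large-subunit genes in the promoter table, 4 held it and Rpl11 and Rpl18 did not. Rplp1, Rpl8 and Rpl3 were not among the 39. Among the small-subunit genes, 1 of the 24 matched held the heptamer. This was Rps9, which had the lowest fold change of its subunit (228 ± 19.5 to 138 ± 3.69 CPM, log2 fold change -0.72, adjusted p = 3.42e-08 by edgeR). The heptamer was noticed after the fold changes were known, so these shares and medians are descriptions and have no test.

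**Figure D2:**
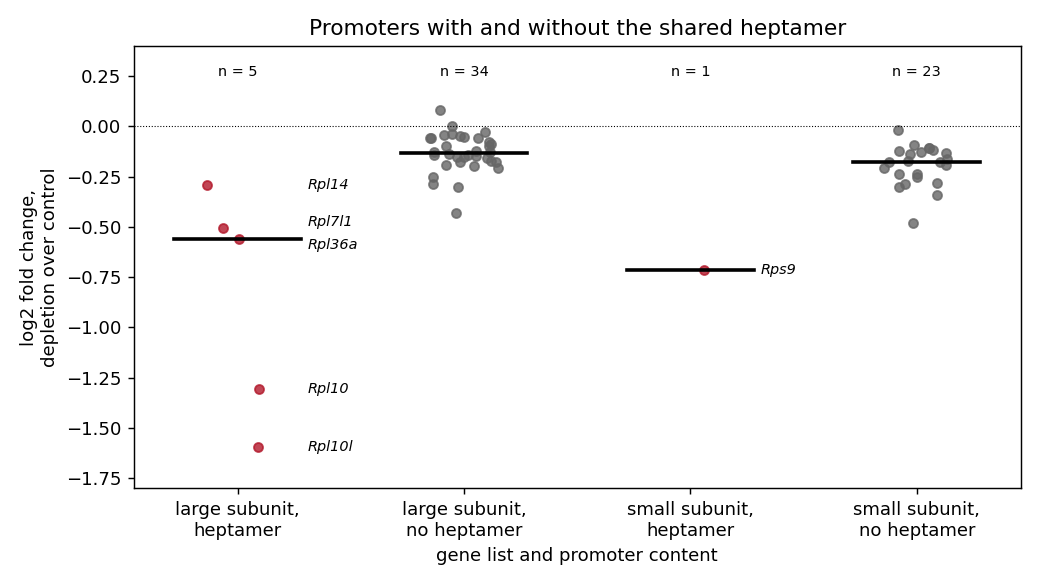
Log2 fold change (depletion over control) of large- and small-subunit genes with a promoter in the table, split by whether the window holds the shared heptamer. Points are genes and horizontal lines are medians. The 5 large-subunit genes with it have a median of -0.56, the 34 without it -0.13, and the small-subunit gene with it is Rps9. The heptamer was noticed after the fold changes were known, so the split is a description and has no test.

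Other motifs were searched in the same windows by their letters, on both strands. The ETS motif CCGGAAG was in 15 of 39 large-subunit promoters (38.5%) and in 20.8% of the promoters of all genes tested. The YY1 motif AAGATGG was in 5 (12.8% against 8.52%), the TATA motif TATAAA in 5 (12.8% against 8.40%) and the NRF1 motif GCGCATGC in 3 (7.69% against 6.35%). The SP/KLF motif GGGCGG was in 27 (69.2% against 69.8%) and the NFY motif CCAAT in 12 (30.8% against 43.0%). A run of at least 8 pyrimidines on the strand of the gene was in 36 of 39 (92.3% against 74.3%). Among the called genes, Rpl11 held the ETS motif, Rpl7l1 the YY1 motif, Rpl36a the TATA motif and Rpl10 the NFY motif. The SP/KLF motif was in 5 of the 6 in the table, all but Rpl11, and a pyrimidine run in all 6. In the narrower window from 100 bases before to 50 after the start, 5 of the 6 held a pyrimidine run, all but Rpl7l1. In that window 89.7% of large-subunit promoters did, against 49.0% of all genes tested. The SP/KLF motif was there in 2 of the 6, Rpl18 and Rpl7l1, and the NFY motif in 0.

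Across the whole list the changes were small and mostly in one direction. The median log2 fold change of the 51 large-subunit genes was -0.15, against -0.002 for all genes tested, with quartiles at -0.21 and -0.08. Of the 51 genes, 49 (96.1%) were below 0, against 50.6% of all genes. In 38 of 51 (74.5%) each depletion library lay below each control library, against 22.9% of all genes, and in none did both lie above. Without Rpl10 and Rpl10l the median was -0.14, with 7 of 49 genes called, against 1.4% of all genes. The members share libraries and scaling, so these counts describe the list and are not independent observations.

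**Figure D3:**
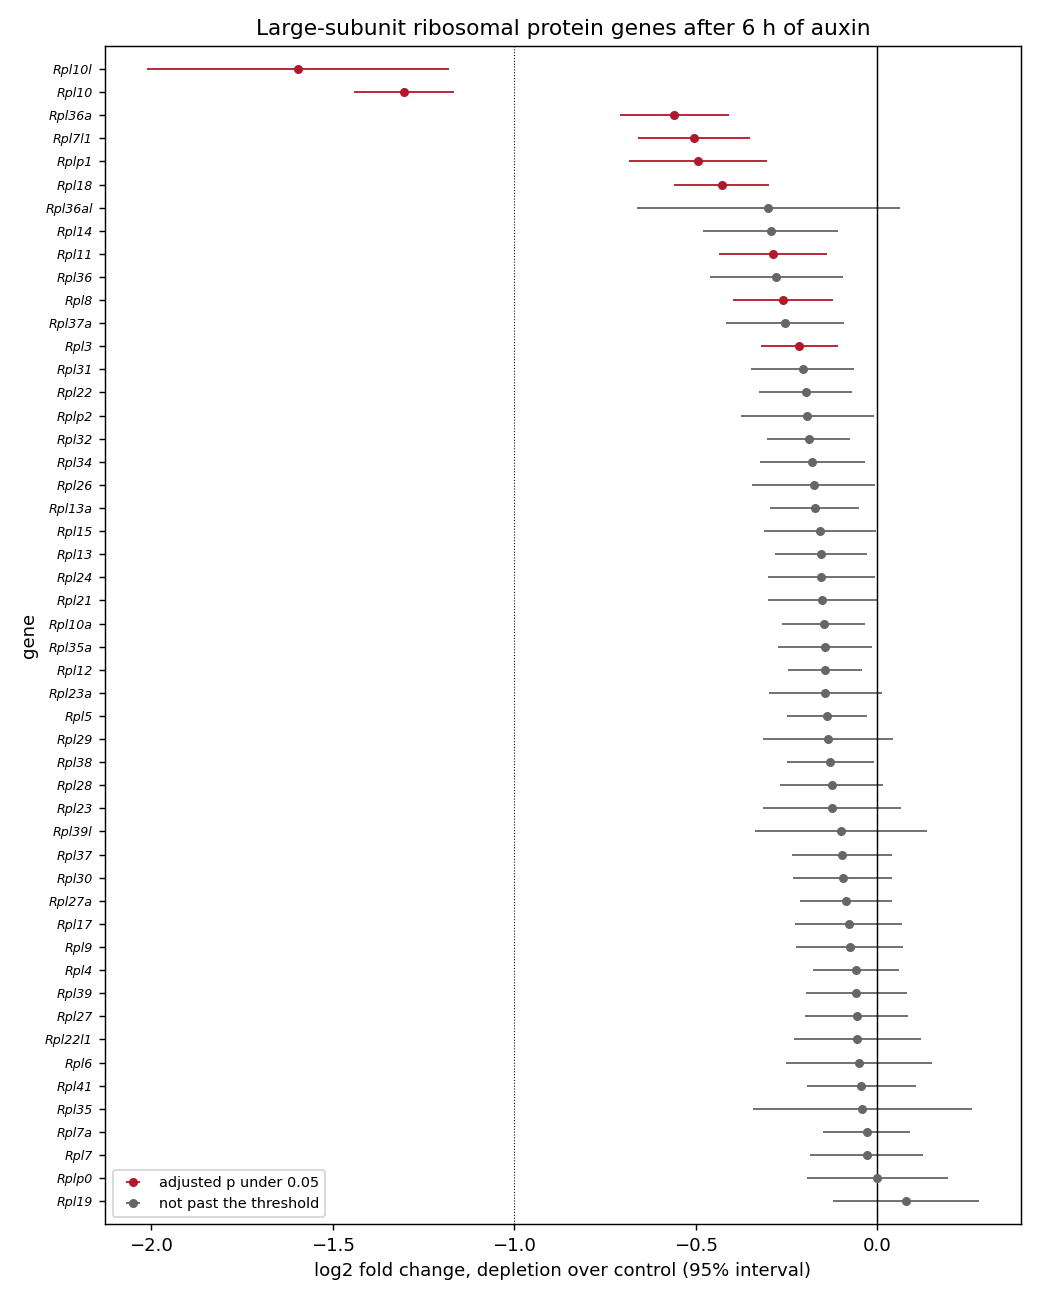
Log2 fold change (depletion over control) of 50 of the 51 large-subunit genes, with 95% intervals. Red points are the 9 genes at an adjusted p under 0.05, and the dotted line marks a 2-fold fall. Rpl10l and Rpl10 stand beyond this line, and the other genes drawn lie between -0.56 and 0.08.

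Only Rpl19 and Rplp0 had values above 0, and neither differed beyond the spread of its libraries. Rpl19 was at 68.5 and 57.3 CPM in control and at 66.7 and 65.9 CPM after depletion (log2 fold change 0.08, 95% interval -0.12 to 0.28). Its groups overlapped, and the value turned to -0.02 with the size factors recovered from the deposited table. Rplp0, the scaffold of the stalk, was at 68.8 and 61.7 CPM in control and at 66.2 and 64.1 CPM after depletion (log2 fold change 0.0007, 95% interval -0.19 to 0.19). That value changed sign in 6 of the other settings. At the other end, the lowest uncalled value was that of Rpl36al, at -0.30 (adjusted p = 0.427 by edgeR's quasi-likelihood test, Benjamini-Hochberg adjusted), whose libraries overlapped at 15.9 and 22.9 CPM in control and 16.5 and 15.3 CPM after depletion.

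Grouped by role, the 3 proteins next to the peptidyl transferase centre, Rpl3, Rpl8 and Rpl10, were each called, though by very different amounts (-0.21, -0.26 and -1.30 on the log2 scale), against 1.4% of all genes. DESeq2 called only Rpl10 of these 3, against 0.481% of all genes. Of the 4 genes of the stalk and its base, Rplp1 was called, against 1.4% of all genes. Rplp2, the partner of Rplp1, had a log2 fold change of -0.19, Rpl12 of -0.14 and Rplp0 of 0.0007, none of them past the threshold. The interval of Rplp1 (-0.68 to -0.30) and that of Rplp0 (-0.19 to 0.19) did not overlap. Of the pair that carries 5S ribosomal RNA into the subunit, Rpl11 was called and Rpl5 was at -0.14 (95% interval -0.25 to -0.03, adjusted p = 0.179 by edgeR's quasi-likelihood test, Benjamini-Hochberg adjusted).

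None of the 9 genes whose proteins line the exit tunnel or surround its end was called. Their log2 fold changes ran from -0.21 in Rpl31 and -0.20 in Rpl22 through -0.18 in Rpl26, -0.14 in Rpl23a, -0.08 in Rpl17, -0.06 in Rpl4 and Rpl39 and -0.04 in Rpl35 to 0.08 in Rpl19, with 3 of 9 at an unadjusted p under 0.05 in edgeR, against 7.66% of all genes. With the recovered size factors 4 of the 9 were called, against 5.89% of all genes. These were Rpl31, Rpl22, Rpl26 and Rpl23a (adjusted p = 0.00831, 0.00321, 0.0431 and 0.0495 by edgeR). DESeq2 called 0 of the 9. Rpl22 was called in 4 of the 13 other fits, also with library totals (adjusted p = 0.0440 by edgeR) and with the replicate block. Its log2 fold change ran from -0.30 to -0.13 over the 13 other fits. None of the 3 genes for proteins of the bridges to the small subunit was called either (Rpl24 at -0.15, Rpl30 at -0.09 and Rpl41 at -0.04). At an unadjusted p under 0.05 in edgeR, 1 of these 3 was lower, against 7.66% of all genes. Of 9 genes mutated in Diamond-Blackfan anaemia, Rpl11 and Rpl18 were called, against 1.4% of all genes tested. The other 7 ran from -0.21 in Rpl31 through Rpl26, Rpl15 (-0.16), Rpl35a (-0.14), Rpl5 and Rpl27 (-0.06) to -0.04 in Rpl35.

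Of the 5 paralogous copies in the table, Rpl10l and Rpl7l1 were called, against 1.4% of all genes tested. Rpl36al (-0.30), Rpl39l (-0.10) and Rpl22l1 (-0.05) were not called. Rpl3l had no row in the table. Rpl10 and Rpl10l encode proteins identical at 211 of 214 positions, with coding sequences 84.7% identical, and both fell. Rpl36a and Rpl36al encode the same 106 residues, but the X-linked Rpl36a was called and Rpl36al was not. Their intervals overlapped, so that no difference between them was detectable at the 53 to 98 counts of Rpl36al per library. The ratio of Rpl36a to Rpl36al counts was 8.89 and 6.02 in control and 5.52 and 6.47 after depletion (exact permutation p = 0.667). Rpl7 and Rpl7l1 share 41.5% of aligned residues, and their intervals did not overlap. Rpl7 was at 108 and 103 CPM in control and at 100 and 106 CPM after depletion (log2 fold change -0.03, 95% interval -0.18 to 0.13), while the interval of Rpl7l1 ran from -0.66 to -0.35. The ratio of Rpl7 to Rpl7l1 counts was 0.882 and 0.756 in control and 1.10 and 1.17 after depletion (exact permutation p = 0.333). The third X-linked gene, Rpl39, was at 138 and 136 CPM in control and at 130 and 134 CPM after depletion (log2 fold change -0.06).

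Per kb of annotated gene span, the highest control levels were those of Rpl12 (160 CPM per kb), Rpl10a (138), Rpl36 (108), Rpl10 (105) and Rpl41 (99.1). By this measure Rpl10 ranked 4 among the 51 genes in control, and at 42.6 CPM per kb it ranked 22 after depletion. The other 4 genes kept places within the first 5. The lowest control levels per length were those of Rpl35 (5.52), Rpl11 (5.92), Rpl39l (8.28), Rpl6 (14.3) and Rpl36al (14.4). Rpl10l moved from rank 42 (18.2 CPM per kb) to rank 49 (6.00 CPM per kb). The levels per kb were not adjusted for the share of each gene where reads can be placed uniquely. That share was 48.3% in Rpl10l and 96.1% in Rpl8, so ranks between genes depend on it. For Rpl11 the annotated span of 25164 bp includes a long isoform, and the span counted by the authors may be shorter.

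Within-library shares do not depend on scaling between libraries. Rpl10 took 2.71% (95% exact binomial interval 2.53 to 2.91) and 3.04% (2.85 to 3.23) of all large-subunit counts in control and 1.35% (1.25 to 1.46) and 1.29% (1.19 to 1.41) after depletion. These intervals cover counting error only. The groups did not overlap (log2 ratio -1.12, exact two-sided permutation test p = 0.333, the smallest possible with 2 libraries a group). The large-subunit genes together took 0.875% and 0.847% of all counts in control and 0.746% and 0.731% after depletion (log2 ratio -0.22, exact permutation p = 0.333). Without Rpl10 and Rpl10l the log2 ratio was -0.20. In contrast, the ratio of large- to small-subunit counts was nearly constant, at 1.27 and 1.29 in control and 1.27 and 1.28 after depletion (log2 ratio -0.008, exact permutation p = 1).

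The 32 small-subunit genes had a median log2 fold change of -0.17, and 31 (96.9%) were below 0, against 50.6% of all genes tested. Called lower were 7 of the 32, against 1.4% of all genes: Rps9, Rps27l (-0.48), Rps10 (-0.34), Rps23 (-0.30), Rps7 (-0.29), Rps4x (-0.25) and Rpsa (-0.24). No small-subunit gene fell by 2-fold. DESeq2 called 1 small-subunit gene lower, against 0.481% of all genes. The 47 tested genes for the large subunit of the mitochondrial ribosome had a median of -0.09. Of these 47, 31 (66%) were below 0 and 0 were called lower by edgeR or by DESeq2. At an unadjusted p under 0.05 in edgeR, 4 were lower and 2 higher, against 7.66% and 8.53% of all genes. The lowest of them, Mrpl34, was at 3.61 and 3.82 CPM in control and at 2.02 and 1.25 CPM after depletion (log2 fold change -1.17, adjusted p = 0.149 by edgeR's quasi-likelihood test, Benjamini-Hochberg adjusted). Of 43 factors that assemble the 60S subunit, 1 was called lower, against 1.4% of all genes. It was Brix1, which acts on early nucleolar precursors (57.3 ± 0.751 to 42.8 ± 3.34 CPM, log2 fold change -0.42, adjusted p = 0.0236 by edgeR). The median of the 43 was -0.07. The call of Brix1 was lost without either depletion library.

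**Figure D4:**
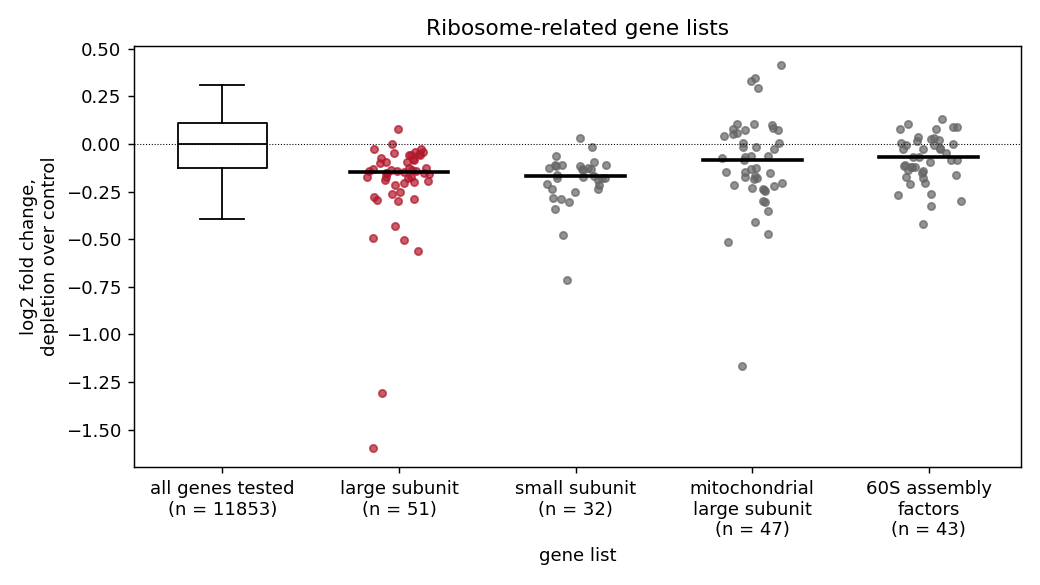
Log2 fold change (depletion over control) of all genes tested (box with quartiles and median, whiskers at the 5th and 95th percentiles), and of each gene (points) of the large subunit, the small subunit, the mitochondrial large subunit and the 60S assembly factors, with list medians as lines. The medians are -0.15, -0.17, -0.09 and -0.07, and Rpl10l and Rpl10 are the lowest large-subunit points.

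Gene length moved with the fold change over the whole table. The large-subunit genes are short, with a median span of 3243 bp against 22209.5 bp for all genes tested, and 38 of the 51 fell in the shortest decile of genes. In that decile all genes had a median log2 fold change of -0.06, with 60.4% below 0 and 2.7% called lower, while that of its 38 large-subunit genes was -0.15. In the longest decile the median of all genes was 0.10. When a smooth trend on gene length was removed, the median of the large-subunit genes was -0.11 against -0.03 for all genes, 40 of 51 lay below the median of all genes, and 8 of the 9 calls remained, without Rpl8. The part of length in the small common shift was not otherwise tested.

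**Figure D5:**
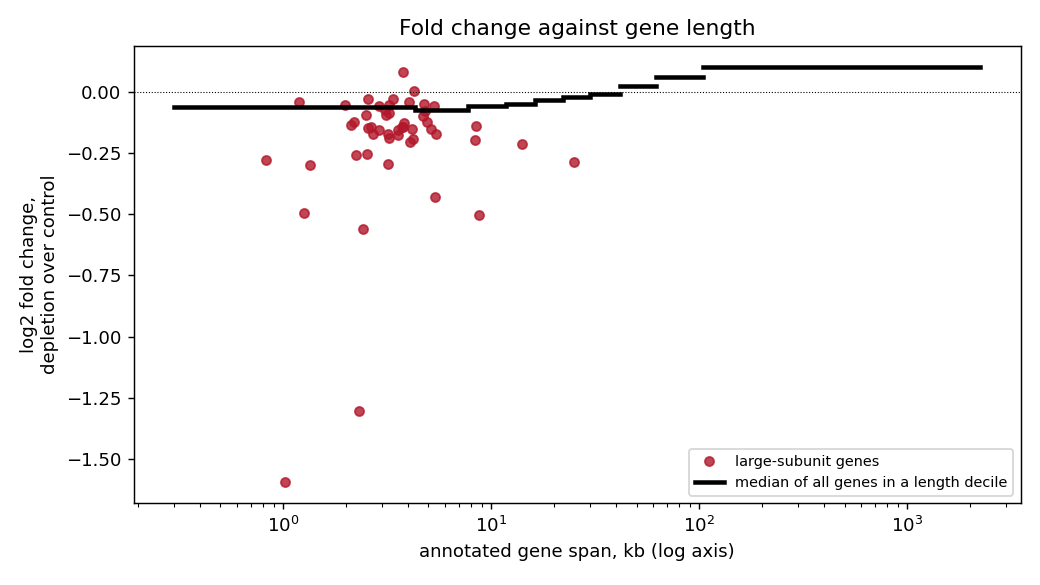
Log2 fold change (depletion over control) of the 51 large-subunit genes (red points) against annotated gene span in kb (log axis), with black bars at the median of all genes in each decile of gene length. The bars run from -0.06 in the shortest to 0.10 in the longest decile, and the 38 large-subunit genes in the shortest decile have a median of -0.15.

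Counts around the called genes were compared with those of their neighbours. Dnase1l1, which lies 82 bp from Rpl10 on the opposite strand, was at 3.31 and 3.28 CPM in control and at 2.02 and 1.96 CPM after depletion, from 11 or 12 counts in each library (log2 fold change -0.72, adjusted p = 0.407 by edgeR's quasi-likelihood test, Benjamini-Hochberg adjusted). The next genes along, Taz and Emd, were at -0.19 and -0.07 and were not called. Gla, 87 bp from Rpl36a on the opposite strand, was at -0.14 and not called. Of the 3 tested genes nearest to each called gene, Fam83e was the only one called. It lies 376 bp from Rpl18 on the same strand, and was at 147 and 153 CPM in control and 119 and 117 CPM after depletion (log2 fold change -0.35, adjusted p = 0.00277 by edgeR), beside -0.43 for Rpl18. Of the 51 large-subunit genes, 20 hold a small nucleolar RNA on the same strand, and 2 of these were called. The other 31 hold none, and 7 of them were called, against 1.4% of all genes tested. The median log2 fold changes of these groups were -0.14 and -0.16.

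Because ribosomal protein genes have many processed pseudogenes, only part of each gene can be measured with reads placed uniquely. The share of 28-base stretches of a gene that occur once in the genome had a median of 82.3% over the 51 large-subunit genes, with 48.3% in Rpl10l as the lowest value and 96.1% as the highest. It was 65.9% in Rpl10, 81.9% in Rpl36a, 78.5% in Rpl7l1, 73.5% in Rplp1 and 91.0% in Rpl18. Rpl36al also lies within a longer annotated gene on its strand, Gm49383, so that the 2 may share reads. The coding sequences of Rpl10 and Rpl10l are 84.7% identical. The authors' mapping also took reads shorter than 28 bases and allowed mismatches. Whether reads of Rpl10 were placed on Rpl10l was not tested. The share of unique 28-base stretches differs between genes and was computed from the genome sequence, not from the libraries. Whether the share that can receive reads differed between control and depletion libraries was not tested.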

How the data were processed

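PRO-seq libraries of 2 control (0 h) and 2 depletion (6 h of auxin) samples were grouped by their labelled treatment. The authors removed adapters with cutadapt 1.18, mapped reads to mm10 with Bowtie 1.2.2 keeping unique best positions, collapsed reads by molecular identifier, and kept the last base of the nascent RNA on the strand of transcription. The values the authors deposited are raw counts, 1 for each collapsed read within a gene (Ensembl 100 transcripts with start sites corrected by CAGE). The authors also deposited a DESeq2 comparison, whose fold changes, errors and p-values were not used. Its mean normalized signal, made by the authors by dividing counts by size factors and averaging over the 4 libraries, served only to recover those factors (0.699 and 0.740 for control, 1.32 and 1.24 for depletion). These values are not equal within a condition, although the methods name a single spike-in scaling per condition. Their origin was not resolved here. The spike-in counts were not used here. All 4 columns of counts were used, and 0 columns of per-sample values were left out.

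Genes were filtered with filterByExpr (minimum count 10, minimum total 15), which left 11853 of 12486 genes, and scaled with TMM. The test was edgeR 4.0.16 (R 4.3.3) glmQLFTest, two-sided, with condition as the only term and Benjamini-Hochberg adjustment over all genes tested. Calls were made at an adjusted p under 0.05, with and without a fold change of at least 2. Alternatives covered scaling, DESeq2 1.42.0, limma 3.58.1 (voom), the filter, a replicate block, an offset on gene length, a 1.5-fold threshold and leaving out each library. The fit was tested on simulated data.

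A few items are not reported here. The members, gene lists and motifs were chosen with earlier results of these data known. Named were Rpl10, Rpl10l, every called member, the 5 highest and 5 lowest control levels per length, the members of the role groups, copies and anaemia genes, Zfp574, the extreme uncalled members and called genes of related lists. Positions came from GENCODE M21, which matched 51 of 51 members. Promoters came from RefSeq (GRCm38.p6), which matched 39 of 51, and start sites may differ from those the authors counted from. Windows cover 250 bases before to 50 after the start. Protein identity was computed with Biopython 1.88 from GENCODE coding sequences. Replicates of a group differed by more than sampling noise (chi-square per degree of freedom 1.88 and 1.49). They are labelled biological, but the source of each was not given in more detail.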

Additional observations from a re-analysis of the deposited data

How the results depend on the processing

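Rpl10 (-1.41 to -1.25 on the log2 scale) and Rpl10l (-1.71 to -1.48) kept their direction and call in every alternative that tested them. The mean-count filter of 100 removed Rpl10l, leaving 1 large-subunit gene lower at 2-fold. Leaving out 1 library at a time gave 2 in each case, -1.36 to -1.25 for Rpl10 and -1.71 to -1.48 for Rpl10l. The 9 genes lower at an adjusted p under 0.05 became 30 with the recovered size factors, which also moved the median of all genes to -0.11 and that of the large-subunit genes to -0.25. The 7 called small-subunit genes became 19 with the recovered factors, 14 with the replicate block and 1 with DESeq2, and the called assembly factor became 6, 1 and 0. The count of large-subunit genes was 5 with DESeq2, which called 60 genes lower in the whole table against 166. Without single libraries the median of the large-subunit genes ran from -0.18 to -0.11. With a replicate block the count of large-subunit genes called was 16. Replicate deviations correlated little between the conditions over all genes tested (0.034). This value cannot show whether the replicate numbers pair the samples, and the labels do not say. The result of the block is therefore given only as a count. The length offset gave 8. Called genes in the table (166 lower, 132 higher) shifted to 202 and 64 with library totals, to 698 and 49 with the recovered factors, to 300 and 366 with the replicate block and to 176 and 52 with the length offset. DESeq2 gave 60 and 14. Without single libraries, the log2 ratio of depletion to control ran from -0.0172 to 0.00184 for the large- to small-subunit ratio. For the Rpl10 share it ran from -1.20 to -1.04. In the window from 100 bases before to 50 after the start, 48.7% of large-subunit promoters held the SP/KLF motif, against 59.7% of those of all genes tested.

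Values near 0 changed sign. Rplp0 was at -0.0331 with library totals, -0.102 with the recovered factors, -0.0138 with the mean-count filter, -0.0015 with the replicate block and between -0.0789 and 0.0804 without single libraries. Rpl19 was at -0.0229 with the recovered factors, and with the length offset Rpl7 was at 0.0103 and Rpl7a at 0.00662. Without single libraries Rpl19 ran from -0.0478 to 0.211, Rpl23 ran from -0.303 to 0.0653, Rpl6 ran from -0.19 to 0.0967, Rpl9 ran from -0.183 to 0.0349, Rpl41 ran from -0.105 to 0.0274, Rpl35 ran from -0.0984 to 0.021 and Rpl7 from -0.0693 to 0.0157. The causes were not tested.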

Other observations

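The longest stretches that the promoter windows of Rpl10 and Rpl10l share are 8 bases long, and there are 3 of them. TCTATGAT, which begins at -72 in Rpl10 and at -51 in Rpl10l, is also in Rpl7l1 and in 0.366% of the promoters of all genes tested. In Rpl10l it overlaps the heptamer shared by 5 large-subunit promoters, and in Rpl10 it lies further from the start than the heptamer does. GCAGGCGT is also in Rpl12 and in 2.625% of the promoters of all genes tested. GAAGATAG, on opposite strands in the pair, is also in Rpl10a and in 0.441% of those promoters.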
